A study of Mus musculus with 4 samples.

Results

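The Sox genes encode transcription factors that share one DNA-binding domain, and 10 of them (Sox2, Sox4, Sox5, Sox6, Sox8, Sox9, Sox10, Sox11, Sox12 and Sox13) were followed here in neural crest descendants from the gut of mouse embryos. They were taken by symbol from the deposited table, where each matched 1 of 27178 genes once repeated identifiers were kept once. The gut came from Wnt1-tdT embryos at 11.5 days post coitum, in which a red fluorescent reporter marks descendants of the neural crest. Cells were sorted for that reporter. The comparison asked how the RNA of cells at the wavefront, the leading edge of migration along the gut, differed from that of trailing cells lying 1 to 1.5 mm behind it. There were 2 wavefront and 2 trailing libraries, all with the reporter, and no allele or treatment distinguishes the groups. Whether the replicates are different embryos, litters or pools is not stated in the labels. A p-value then speaks of the spread among these 4 libraries alone, and that spread may be technical.

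Sox proteins bind DNA through the high mobility group (HMG) box, which contacts the minor groove and bends the helix. The family is divided into groups by the likeness of that box. Sox8, Sox9 and Sox10 form SoxE, Sox2 belongs to SoxB1, Sox4, Sox11 and Sox12 form SoxC, and Sox5, Sox6 and Sox13 form SoxD. In the enteric nervous system Sox10 is known for maintaining crest progenitors and for the glial lineage, and its loss leaves the gut without ganglia. Sox8 acts with Sox10, Sox2 is found in progenitors and glia, and SoxC factors are known for driving expression of neuronal genes.

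The HMG box is also where these genes are most alike, so its coding sequence is shown for the groups on which the results turn. The stretch is the block of 79 codons most conserved across the 10 coding sequences, from the GENCODE M21 transcripts on GRCm38, read 5′ to 3′ on the coding strand. Capitals mark the longest run of bases identical at the same place in all 3 members of the group, which was 17 bases in SoxE and 20 bases in SoxC. In SoxE the block is joined from 2 exons and spans chr17:25568943-25570228 for Sox8 (minus strand), chr11:112782897-112783926 for Sox9 (plus strand) and chr15:79159286-79163407 for Sox10 (minus strand).
Sox8: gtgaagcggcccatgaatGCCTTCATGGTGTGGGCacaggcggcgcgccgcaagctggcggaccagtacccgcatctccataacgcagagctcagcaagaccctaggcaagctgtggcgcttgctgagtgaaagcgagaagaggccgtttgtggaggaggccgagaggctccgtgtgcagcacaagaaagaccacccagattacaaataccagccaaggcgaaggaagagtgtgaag
Sox9: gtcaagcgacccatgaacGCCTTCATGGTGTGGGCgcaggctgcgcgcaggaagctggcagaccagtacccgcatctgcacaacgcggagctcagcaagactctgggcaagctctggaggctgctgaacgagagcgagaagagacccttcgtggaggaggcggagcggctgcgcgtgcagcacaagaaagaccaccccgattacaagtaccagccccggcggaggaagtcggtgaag
Sox10: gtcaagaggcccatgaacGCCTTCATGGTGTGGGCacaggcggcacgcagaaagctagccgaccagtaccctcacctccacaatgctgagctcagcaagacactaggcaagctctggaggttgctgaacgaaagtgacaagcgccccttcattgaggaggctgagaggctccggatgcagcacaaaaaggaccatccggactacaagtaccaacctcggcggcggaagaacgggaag
In SoxC the block is shown for Sox11 and Sox4, where it lies in 1 exon on the minus strand, at chr12:27342028-27342264 and chr13:28952611-28952847.
Sox11: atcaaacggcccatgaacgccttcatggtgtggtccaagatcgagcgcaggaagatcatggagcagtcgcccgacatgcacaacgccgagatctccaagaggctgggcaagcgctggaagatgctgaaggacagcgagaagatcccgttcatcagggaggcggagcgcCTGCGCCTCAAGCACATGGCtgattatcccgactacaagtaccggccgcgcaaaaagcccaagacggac
Sox4: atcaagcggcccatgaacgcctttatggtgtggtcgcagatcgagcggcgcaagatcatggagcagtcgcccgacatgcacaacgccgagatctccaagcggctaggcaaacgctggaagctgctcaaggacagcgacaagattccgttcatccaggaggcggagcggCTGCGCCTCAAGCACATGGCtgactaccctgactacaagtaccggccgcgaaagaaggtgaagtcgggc
Bases were the same in all 3 members at 77.2% of the places in SoxE and 78.9% in SoxC. Within a group the blocks were 81.4 to 88.6% identical in bases (9 pairs), and between groups 51.5 to 71.3% (36 pairs). Sox8 and Sox9 encode blocks with 98.7% of residues identical although 85.2% of their bases are. Of all 30-base windows of the annotated transcripts, 0 of 3115 of Sox8 were shared with another of the 10 genes, and the largest share was 0.920% for Sox10, with Sox9 and Sox2. The length of the reads and the treatment of reads with several hits were not given.

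Whole reads were recovered from the deposited CPM, the reads of each gene relative to all reads of its library. The trailing libraries held 511074 and 447224 reads and the wavefront libraries 535636 and 258457, replicates 1 and 2 in that order here and below. Wavefront replicate 2 stood apart: ribosomal RNA took 55.5% of its reads against 15.6 to 26.1% in the other libraries. Markers of enteric crest had reads for 6 of 6 genes in every library, summing to 4608 and 3514 trailing and 5416 and 3114 wavefront CPM outside ribosomal RNA. The 10 enteric neuron markers summed to 3829 and 4210 trailing against 1079 and 974 wavefront CPM on that scale. Gut mesenchyme markers (11 of 12 with a read, Twist1 at 0) summed to 230 and 239 against 509 and 1426. Erythroid markers (7 of 11 in the table with a read, Gata1 at 0) summed to 5.17 and 0 against 2.21 and 974. Gut epithelium summed to 23.3 to 54.4 trailing and 44.2 to 113 wavefront CPM, and endothelium to 44.0 to 84.7 and 64.1 to 104. Leukocyte markers (2 of 8 with a read, Ptprc at 0) summed to 12.1 to 12.9 and 11.1 to 34.8, and mesothelium (1 of 4 with a read, Wt1 at 0) to 0 in 3 libraries and 17.4 in wavefront replicate 2.

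None of the 10 genes passed the test for a difference between wavefront and trailing cells with all 4 libraries in the fit. In limma on log2(CPM + 1) all 10 were tested, 0 were called at a Benjamini-Hochberg adjusted p under 0.05, and 0% of 12519 genes were. By counts, with the quasi-likelihood test of edgeR and Benjamini-Hochberg adjustment, 5 had enough reads (Sox4, Sox5, Sox8, Sox10 and Sox11) and 0 were called, where 1.74% of 5759 genes were. One gene, Sox10, had an unadjusted p under the threshold in each (limma 0.036, edgeR 0.0296), and no other did. Over all genes tested, 6.85% were under it in limma and 9.9% in edgeR, so 1 of 10 and 1 of 5 members does not set the Sox genes apart. DESeq2 gave an adjusted p for 5 of the genes and called 0, with 0 under the threshold unadjusted. With the wavefront set over the trailing cells, the members' median log2 fold change stood at 0.11 in edgeR against 0.01 over all genes tested, and -0.38 against -0.35 in limma. After scaling with TMM factors, which set library sizes by the bulk of the genes, the 2 groups of libraries did not overlap for Sox8, Sox9 and Sox10, and of the 5 genes tested by counts this held for Sox8 and Sox10. It held for 39.1% of the genes of the count test. In bulk RNA, fewer cells of a type and less RNA per cell cannot be told apart, which touches every value that follows.

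**Figure D1:**
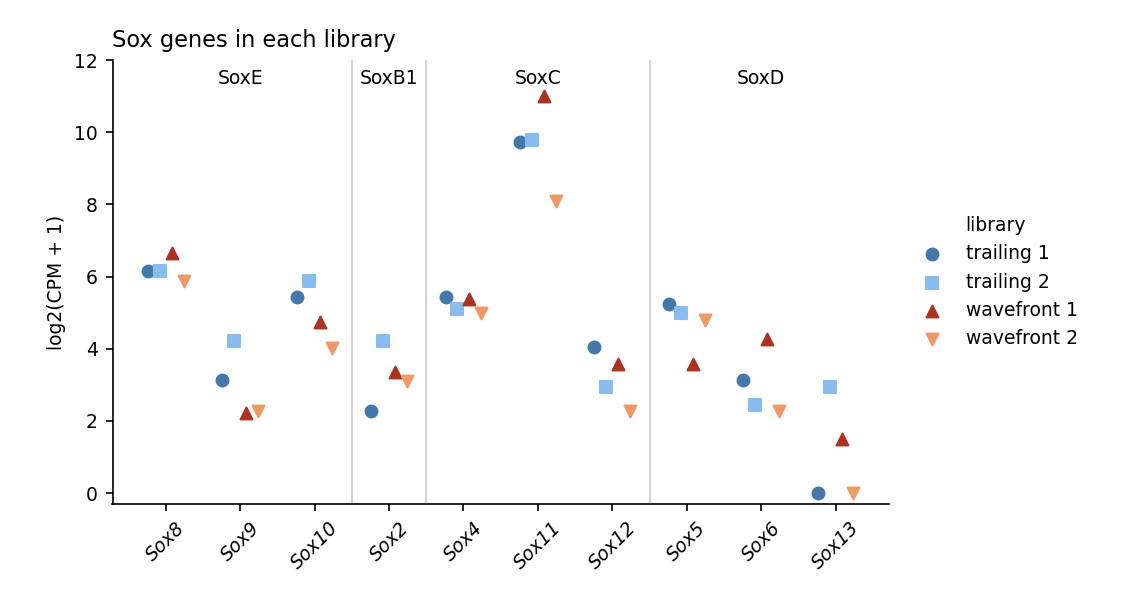
Each point is 1 library's value of 1 Sox gene on a log2(CPM + 1) axis, with genes set out by Sox group and 2 trailing (blue) and 2 wavefront (red, orange) libraries. Sox11 lies above the other genes in every library, with wavefront replicates 1 and 2 on opposite sides of the trailing libraries, and both wavefront libraries lie below both trailing libraries for Sox9, Sox10 and Sox5 on this unscaled axis. Lower wavefront values are common on this axis: 8858 of 12519 genes had a limma log2 fold change below 0 (median -0.35).

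Sox11 was the most abundant of the 10 genes per length in each library. On the scale of CPM per kilobase of merged exons, Sox11 stood at 101 and 106 in trailing and 247 and 32.8 in wavefront libraries. Its lowest library was above the highest of the next gene, Sox8, which ranged from 18.5 to 31.9. In each library Sox8 was above Sox10, although their ranges over the 4 libraries overlapped. Below Sox8 each neighbour in the order overlapped the next across the 4 libraries: Sox10 (mean 11.6 ± 6.08, SD over 4 libraries), Sox4 (7.66 ± 1.18), Sox2 (4.67 ± 2.84), Sox12 (2.08 ± 1.15), Sox9 (1.99 ± 1.59), Sox5 (1.84 ± 0.766), Sox6 (0.580 ± 0.456) and Sox13 (0.491 ± 0.727). The order of these 8 is thus not resolved between neighbours. The merged exons of Sox5 (14.4 kb) and Sox6 (14.8 kb) join many isoforms, so their levels per length are low estimates for any single transcript.

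**Figure D2:**
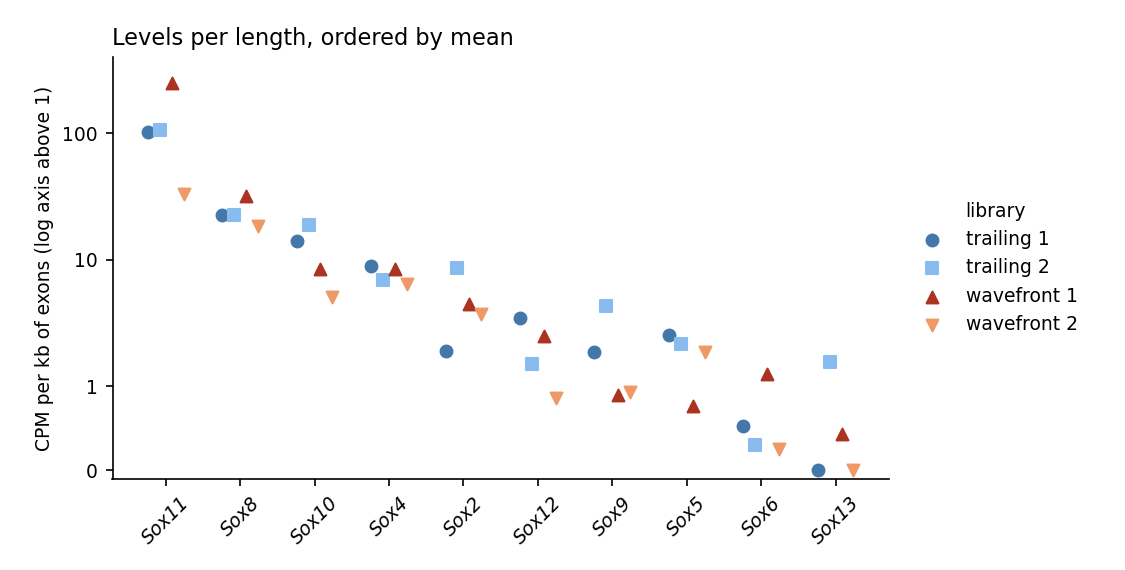
Each point is 1 library's CPM per kilobase of merged exons, on an axis that is linear below 1 and logarithmic above, with genes ordered by their mean over the 4 libraries. The 4 points of Sox11 (32.8 to 247) lie above all points of Sox8 (18.5 to 31.9). From Sox8 down each gene's range over the 4 libraries overlaps that of the next, although Sox8 is above Sox10 within each library.

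Among the SoxE genes, Sox10 and Sox9 were lower in both wavefront libraries and Sox8 was not, and Sox8 held a larger share of the group's reads in both. None of the 3 genes passed a test. Sox10 (chromosome 15, 79154908 to 79165240, minus strand), the crest and glial factor, had 22 and 26 reads in trailing and 14 and 4 in wavefront libraries, or 42.6 and 57.5 against 25.8 and 15.4 CPM. Both wavefront libraries were below both trailing ones, before and after scaling. On scaled CPM the means were 48.1 ± 9.07 trailing and 23.4 ± 0.0981 wavefront (SD, n = 2 each). The log2 fold change was -1.02 ± 0.45 (edgeR adjusted p = 0.418, SE derived from the F statistic of the test). The wavefront SD rests on 14 and 4 reads and is smaller than the counting error of so few. The trailing over wavefront ratio of scaled reads was 2.03. Its exact counting interval, 1.16 to 3.71, leaves out the spread between libraries. In limma it was -1.27 ± 0.48 (adjusted p = 0.68). With 1 library left out in turn, the edgeR value of Sox10 stayed between -1.17 and -0.82. In the authors' deposited table Sox10 is at -0.56 ± 0.46, a shrunken log2 fold change, with an unadjusted p of 0.228.

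Sox8 (chromosome 17, 25565892 to 25570686, minus strand), which overlaps Sox10 in expression and function in enteric crest, had 36 and 32 reads in trailing and 54 and 15 in wavefront libraries. On deposited CPM the libraries overlapped (69.6 and 70.8 against 99.4 and 57.6). After TMM scaling both wavefront libraries were higher, at 89.2 ± 2.15 against 67.6 ± 0.785 scaled CPM (SD, n = 2 each). These SDs rest on 15 to 54 reads per library and are smaller than the counting error of so few. The wavefront over trailing ratio of scaled reads was 1.33, with a 95% exact counting interval of 0.938 to 1.89 that includes no difference. Its log2 fold change was 0.41 ± 0.33 (edgeR adjusted p = 0.777). The limma value was 0.11 ± 0.43 (adjusted p = 0.973). Without wavefront replicate 1 it was -0.28, where the median over all genes was -0.63. Exons of Sox8 overlap those of the antisense gene 2810468N07Rik, which had 8 and 9 trailing and 9 and 0 wavefront reads, and without strand such reads cannot be told apart. Sox9 (chromosome 11, 112782224 to 112787760, plus strand), a factor of crest, epithelium and cartilage, had 4 and 8 reads in trailing and 2 and 1 in wavefront libraries. Both wavefront libraries were lower, but the trailing over wavefront ratio of scaled reads was 3.05 with a 95% exact counting interval of 0.823 to 16.8. The limma value was -1.42 ± 0.75 (adjusted p = 0.714). Sox9 was too low for the count test. Gut epithelium, a tissue that also expresses Sox9, had marker sums of 44.2 to 113 CPM outside ribosomal RNA at the wavefront and 23.3 to 54.4 trailing, and their part in the Sox9 value was not tested.

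A share of reads within a library does not depend on how libraries are scaled. Sox8 gave 58.1% and 48.5% of SoxE reads in the trailing libraries (62 and 66 reads) and 77.1% and 75.0% in the wavefront libraries (70 and 20 reads). The 95% Wilson intervals were 45.7 to 69.5%, 36.8 to 60.3%, 66.0 to 85.4% and 53.1 to 88.8%, and cover counting error only. Sox10 gave 35.5% and 39.4% of SoxE reads in trailing and 20% in each of the wavefront libraries (intervals 24.7 to 47.9%, 28.5 to 51.5%, 12.3 to 30.8% and 8.07 to 41.6%). Put as a ratio, there were 164 and 123 Sox8 reads per 100 Sox10 reads in trailing cells and 386 and 375 in wavefront cells. The groups did not overlap for the shares of Sox8, Sox9 or Sox10. These 3 shares together make up all SoxE reads of a library, so a lower share of Sox10 raises that of Sox8 and they are not separate results. With 2 libraries against 2, an exact two-sided permutation test cannot go below p = 0.333, the value each of these 3 shares reached (1 after Benjamini-Hochberg over the 9 shares compared). The intervals of wavefront replicate 2, with 20 SoxE reads, overlap those of both trailing libraries for Sox8 and Sox10. Those of wavefront replicate 1 overlap trailing replicate 1 for Sox8 and both trailing libraries for Sox10.

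**Figure D3:**
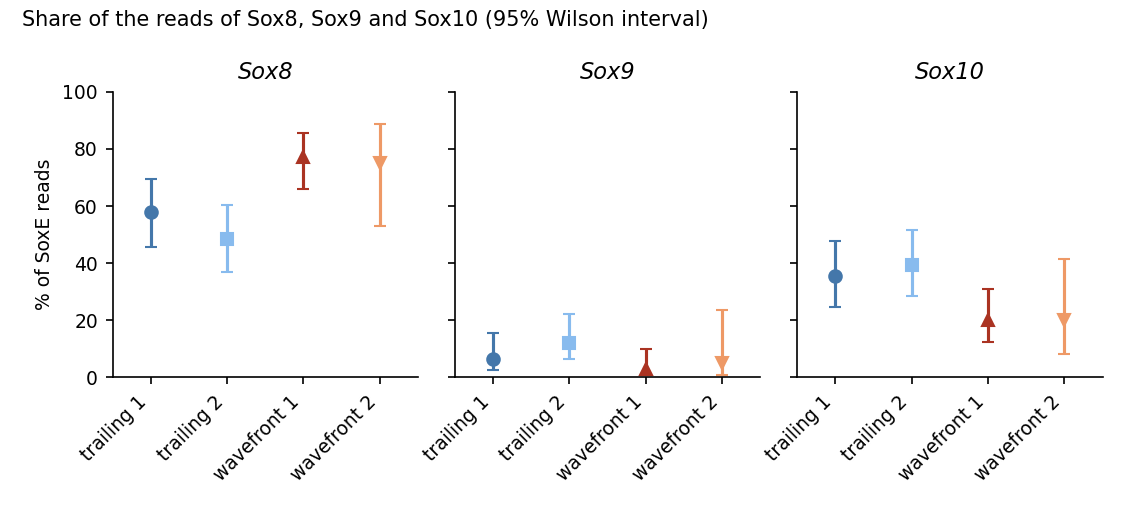
Each panel gives the percentage of SoxE reads that came from 1 gene in each of the 4 libraries, with bars for the 95% Wilson interval. Sox8 is at 48.5 and 58.1% in trailing and 75.0 and 77.1% in wavefront libraries, and Sox10 at 35.5 and 39.4% against 20% in both.

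Sox2, the SoxB1 factor of neural progenitors and of enteric glia, was rare. It had 2 and 8 reads in trailing and 5 and 2 in wavefront libraries, and the trailing libraries spanned the wavefront ones on deposited CPM (3.87 and 17.7 against 9.21 and 7.69). Its limma log2 fold change was -0.02 ± 0.84 (adjusted p = 0.997), but 0.24 with DESeq2 size factors, 0.95 without trailing replicate 2 and 0.098 without wavefront replicate 2, so it has no settled direction. In reads, the scaled wavefront over trailing ratio was 0.918 with an exact counting interval of 0.297 to 2.67. A difference within that interval was not detectable at this depth. Sox2 (chromosome 3, 34650405 to 34652461, plus strand) lies inside the noncoding gene Sox2ot on the same strand, without shared exons, and Sox2ot had 6 and 7 trailing and 6 and 0 wavefront reads.

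The 2 wavefront libraries disagreed on Sox11, the SoxC factor of developing neurons. Sox11 (chromosome 12, 27334264 to 27342574, minus strand) had 435 and 400 trailing reads, 1117 in wavefront replicate 1 and 71 in wavefront replicate 2. That is 841 and 885 CPM against 2057 and 273, so one wavefront library lay above and the other below the trailing pair. The trailing libraries agreed closely after scaling, at 831 ± 10.3 scaled CPM, while the wavefront mean was 1145 ± 1033 (SD, n = 2 each). The log2 fold change was 0.49 ± 0.42 (edgeR adjusted p = 0.798) and -0.20 ± 1.00 in limma (adjusted p = 0.983), with opposite signs, and limma with DESeq2 size factors gave 0.086. Without wavefront replicate 2 the edgeR value was 1.23 ± 0.35 and passed (adjusted p = 0.027). Without wavefront replicate 1 it was -0.999 ± 0.41 and did not pass (edgeR adjusted p = 0.279). The direction for Sox11 at the wavefront therefore rests on which library is used. Wavefront replicate 2 is the library with the large ribosomal share and with 1426 mesenchyme and 974 erythroid marker CPM outside ribosomal RNA, whose part in the Sox11 value was not tested.

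**Figure D4:**
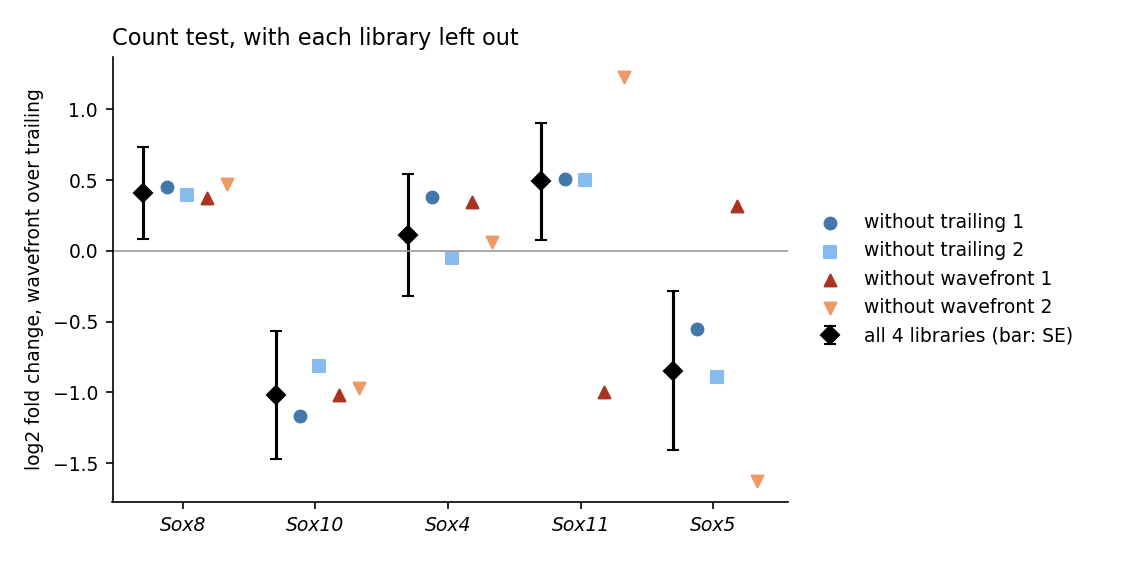
For the 5 genes tested by counts, the diamond is the edgeR log2 fold change with all 4 libraries (bar, SE derived from the F statistic). Each coloured point is the value with 1 library left out. Sox10 stays between -1.17 and -0.82 and Sox8 between 0.37 and 0.47, while Sox11 goes from -0.999 to 1.23 and Sox5 from -1.63 to 0.32.

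Sox11 reads were also set against a receptor gene of the enteric crest in the same library. Per 100 reads of Ret, which encodes the GDNF receptor kinase, there were 50.3 and 73.4 reads of Sox11 in trailing and 79.1 and 45.8 in wavefront libraries. These ratios overlapped between the groups.

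Sox4 and Sox12, the other SoxC genes, showed no separation of the groups. Sox4 (chromosome 13, 28948919 to 28953713, minus strand) had 22 and 15 reads in trailing and 22 and 8 in wavefront libraries, or 42.6 and 33.2 against 40.5 and 30.7 CPM. Its log2 fold change was 0.11 ± 0.43 (edgeR adjusted p = 0.966) and -0.09 ± 0.43 in limma (adjusted p = 0.983). The sign turned in edgeR without trailing replicate 2 (-0.053) and with library size alone (-0.073), and in limma with DESeq2 size factors (0.19), without trailing replicate 1 (0.087) and without wavefront replicate 2 (0.11). Exons of Sox4 overlap those of the noncoding gene Gm26735 on the other strand, which is not analysed here. Sox12 (chromosome 2, 152393611 to 152398063, minus strand) had 8 and 3 reads in trailing and 6 and 1 in wavefront libraries, with a scaled wavefront over trailing ratio of 0.834 (exact counting interval 0.274 to 2.36) and a limma value of -0.55 ± 0.81 (adjusted p = 0.897), or 0.10 without wavefront replicate 2 and 0.00068 without trailing replicate 1. Sox11 held 93.5% and 95.7% of SoxC reads in trailing and 97.6% and 88.8% in wavefront libraries. Of the reads of all 10 genes together (552 and 511 trailing, 1237 and 110 wavefront) Sox11 gave 78.8% and 78.3%, 90.3% and 64.5%, so any sum over the family mostly reads Sox11.

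In SoxD, Sox5 had lower CPM in both wavefront libraries before scaling but not after it. Sox5 (chromosome 6, 143828425 to 144781977, minus strand), which lacks a transactivation domain of its own, had 19 and 14 reads in trailing and 6 and 7 in wavefront libraries. On deposited CPM this was 36.8 and 31.0 against 11.05 and 26.9, and on scaled CPM 36.0 and 29.3 against 10.1 and 40.9, where the groups overlapped. The log2 fold change was -0.85 ± 0.56 (edgeR adjusted p = 0.689) and -0.92 ± 0.57 in limma (adjusted p = 0.76). It was -1.63 in edgeR without wavefront replicate 2 and 0.32 without wavefront replicate 1. Several antisense and intronic noncoding genes lie in the span of Sox5, and the exons of 1 of them, Sox5os1, overlap those of Sox5.

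Sox6 and Sox13 were near the limit of detection. Sox6 (chromosome 7, 115470872 to 116038796, minus strand), a partner of Sox5 in cartilage, had 4 and 2 reads in trailing and 10 and 1 in wavefront libraries. The scaled wavefront over trailing ratio was 2.40 (exact counting interval 0.815 to 7.92), and the limma value 0.49 ± 0.90 (adjusted p = 0.931), or -0.51 without wavefront replicate 1. Wavefront replicate 1 was the high library, and the other wavefront library was not above the trailing pair on deposited CPM. Sox13 (chromosome 1, 133382303 to 133424377, minus strand) had 0 and 3 reads in trailing and 1 and 0 in wavefront libraries. A count of 0 allows up to 5.80 CPM in trailing replicate 1 and 11.5 CPM in wavefront replicate 2 (3 reads per library). The trailing over wavefront ratio of Sox13 was 2.29 with an exact counting interval of 0.184 to 120, and its limma value -0.71 ± 1.22 (adjusted p = 0.923), or 0.040 without wavefront replicate 2.

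Of 9 other Sox genes with a row in the table, 3 had a read and none more than 1. Sox3 had 1 read in trailing replicate 1, Sox21 had 1 in trailing replicate 2 and Sox15 had 1 in wavefront replicate 1. Sox1, Sox7, Sox14, Sox17, Sox18 and Sox30 had 0 reads in every library, which allows 5.80, 6.64, 5.52 and 11.5 CPM in the order of libraries above. Sox7, Sox17 and Sox18 are the SoxF factors of endothelium.

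Genes that Sox factors are known to act on or with were taken as 4 lists, chosen with earlier results of these data known. Counts and medians of the lists are therefore descriptions and not separate support. The 4 calls of these lists in the count test were lower at the wavefront, as were 77 of the 100 calls over all genes (1.34% of 5759 genes were called lower). Of 24 SoxE-linked crest and glial genes 9 were tested by edgeR: 1 fell, 0 rose and 8 did not pass, with a median log2 fold change of -0.29 against 0.01 over all genes tested. Without wavefront replicate 2, edgeR called 1 SoxE-linked gene higher. Ret had 864 and 545 trailing and 1413 and 155 wavefront reads, Ngfr, a neurotrophin receptor of crest cells, 272 and 161 against 395 and 83, and Ednrb, the endothelin receptor, 269 and 167 against 236 and 51. These 3 did not pass (edgeR adjusted p = 0.908, 0.749 and 0.867). Per 100 reads of Ret there were 2.55 and 4.77 reads of Sox10 in trailing and 0.991 and 2.58 in wavefront libraries, which overlapped.

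Of 8 SoxC-linked genes 5 were tested, of which 3 fell, 0 rose and 2 did not pass, with a median of -1.82 and all 5 below 0. The count of 3 became 1 without trailing replicate 2 and 2 without trailing replicate 1, with library size alone, with a minimum of 20 reads, in DESeq2 and with the authors' deposited p-values. This list holds neuronal genes, and the enteric neuron markers summed to 3829 and 4210 trailing against 1079 and 974 wavefront CPM outside ribosomal RNA. Tubb3 and Dcx are in both lists, and the part of neuron number in these values was not tested. Tubb3, the neuronal beta tubulin, had 783 and 668 reads in trailing against 266 and 62 in wavefront libraries (-1.82 ± 0.37, edgeR adjusted p = 0.00178). It did not pass without either trailing library (edgeR adjusted p = 0.176 without replicate 1 and 0.0796 without replicate 2) or with scaling by library size alone (0.426). Dcx, doublecortin of migrating neurons, had 17 and 25 against 2 and 0 reads, a trailing over wavefront ratio of 16.01 (exact counting interval 4.17 to 137; edgeR adjusted p = 0.00116), and did not pass without trailing replicate 2 (0.231) or with p taken from the authors' deposited table. Th, tyrosine hydroxylase, had 46 and 50 against 3 and 0 reads, a ratio of 24.4 (8.10 to 120; edgeR adjusted p = 2.8e-07). Tead2, a direct SoxC target in the Hippo pathway, had 37 and 51 against 69 and 4 reads (edgeR adjusted p = 0.988), high in wavefront replicate 1 and low in replicate 2 as Sox11 was. Map2, a dendritic microtubule protein, had 19 and 19 against 18 and 1 (edgeR adjusted p = 0.732).

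Of 14 SoxB1-linked neural progenitor genes 6 were tested by edgeR and 0 passed, with 1 at an unadjusted p under the threshold, a median of 0.44 and 1 of 6 below 0. Nes, the progenitor intermediate filament nestin, had 76 and 66 trailing and 159 and 25 wavefront reads (0.62 ± 0.31, edgeR adjusted p = 0.505), higher in both wavefront libraries after scaling. Ccnd1, cyclin D1, had 590 and 403 against 1022 and 191 reads (0.54 ± 0.38, edgeR adjusted p = 0.712), and Chd7, a chromatin remodeller that binds with Sox2, 132 and 134 against 141 and 31 (-0.31 ± 0.31, edgeR adjusted p = 0.841). Of 13 cartilage genes linked to SoxD and Sox9, 0 had enough reads for the count test. In limma 8 were tested, 0 passed and 4 had an unadjusted p under the threshold, against 6.85% of all genes. Only 5 of the 8 were below 0, and the median was -1.48 against -0.35 over all genes. In limma the other 3 lists had 0 calls as well, over 19 SoxE-linked, 7 SoxC-linked and 11 SoxB1-linked genes, with 2, 3 and 1 at an unadjusted p under the threshold.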

How the data were processed

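RNA of sorted Wnt1-tdT cells was sequenced from 2 wavefront and 2 trailing samples, with Nextera XT libraries (no strand kept), per the labels' protocols. Per the submitters' processing notes reads were handled with STAR 2.5.2b and featureCounts on GRCm38 (mm10), and bcl2fastq 2.17, FastQC 0.11.9 and DESeq2 are also named. The sources used here do not give the read length or the counting settings for strand, overlaps and multiple hits.

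The authors deposited one table with CPM per library, per the file headers. All its CPM values (100%) were whole multiples of 1 read within 0.01 reads, and reads were recovered: 1 read is 1.93, 2.21, 1.84 and 3.84 CPM in trailing replicates 1 and 2 and wavefront replicates 1 and 2. The authors' deposited BaseMean is a signal, the mean of scaled reads, and was not used further. Their deposited log2 fold change with its standard error is shrunken. Their deposited Wald statistic is a score, and their deposited p-value is not adjusted; the Benjamini-Hochberg adjustment was made here. Repeated identifiers (428 rows) were kept once. Rows without a symbol (958, 1.27 to 2.51% of reads) were kept.

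The test for CPM was limma 3.58.1 (trend on the mean, location as the only term) on log2(CPM + 1), taking genes whose mean CPM was above 1. The count test on recovered reads was edgeR 4.0.16 (quasi-likelihood, TMM, filterByExpr with 10 reads). That test gives no standard error. The SE shown with edgeR values is the size of the log2 fold change over the square root of the F statistic. DESeq2 1.42.0 was an alternative, under R 4.3.3. These 3 fits were run on simulated reads in which only genes with many reads were changed, with the same spread for all genes. That run does not cover genes with as few reads as most Sox members. Fold changes in limma are on the log2(CPM + 1) scale, which understates low genes. Scaled CPM are reads over TMM-adjusted library sizes. The limma median over all genes was -0.35 on deposited CPM and -0.06 with DESeq2 size factors, so limma values are best read relative to it. Adjusted p are Benjamini-Hochberg over all genes tested, two-sided. Reads carry no molecular identifiers, so intervals and floors cover counting error only.

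Coordinates, merged exon lengths and coding sequences are those of GENCODE M21 on GRCm38. All 10 members, other Sox genes with a row and, in each list, genes called by the count test plus up to 3 uncalled genes of highest mean CPM were named, except for items that are not reported here. The members and lists were chosen with earlier results of these data known.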

Additional observations from a re-analysis of the deposited data

How the results depend on the processing

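No alternative to limma or to the count test called a Sox gene except edgeR without wavefront replicate 2, which called 1 (Sox11, 1.23), so that leaving out 1 library gave 0 to 1 members called by counts. Sox10 was below 0 in all 12 alternatives of each test (by counts -1.20 to -0.56, adjusted p 0.399 to 1.00, with DESeq2 and the authors' deposited values among them), as were Sox5 (-1.53 to -0.32) and Sox9 (-1.97 to -0.88) in limma, and Sox8 was above 0 by counts in 13 (0.054 to 0.47). In limma the median over all genes was itself below 0 in every setting, from -0.63 to -0.01. It was -0.63 without wavefront replicate 1, where Sox5 was at -0.32 and Sox8 at -0.28, both above that median. The following log2 fold changes turned sign. In limma, Sox2, Sox4 and Sox11 were at 0.24, 0.19 and 0.086 with DESeq2 size factors, 0.23, 0.18 and 0.073 with TMM factors, and 0.26, 0.19 and 0.082 on CPM outside ribosomal RNA. With 1 library left out, limma values ran from -0.99 to 0.95 for Sox2, -0.28 to 0.11 for Sox4, -0.51 to 1.50 for Sox6, -0.28 to 0.50 for Sox8, -1.66 to 1.25 for Sox11, -1.21 to 0.10 for Sox12 and -2.18 to 0.040 for Sox13. Sox4 was at -0.073 in edgeR with library size alone. With 1 library left out, edgeR values ran from -0.053 to 0.38 for Sox4, -1.63 to 0.32 for Sox5, -0.999 to 1.23 for Sox11, -0.53 to 0.032 for Ednrb, -0.62 to 0.82 for Ret and -1.89 to 0.45 for Tead2. The cause was not tested. Leaving out 1 library leaves a lone sample that is assumed to vary like the other group.

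Replicate numbers are shared between the groups, but the labels give only a number, and same-numbered libraries deviated together weakly (correlation 0.0589 over 5759 genes). With the number as a replicate block, 0 members were called by either test and Sox10 was at -0.95 in edgeR (adjusted p = 0.541). Over all genes, edgeR called 100 genes without and 61 with the block, 38 with libraries thinned to 1 depth, 65 with a minimum of 20 reads, and 40 to 143 with 1 library left out. DESeq2 and the authors' deposited p-values called 13 each. In limma, 0 genes were called, against 52 with the block, 33 at mean CPM above 5, 10 with DESeq2 size factors, 9 with TMM factors, 5 without a filter and 4 outside ribosomal RNA. Depth limits Sox2, Sox6, Sox9, Sox12 and Sox13 most, with 4 to 18 reads each over the 4 libraries.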
